A study of Mus musculus with 12 samples.

Results

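Myotubularins and the PIKfyve complex use up phosphatidylinositol 3-phosphate (PI3P), the lipid made by class 3 PI3K. In the complex, the kinase PIKfyve does so. The genes described are 7 myotubularin phosphatases (Mtm1, Mtmr1, Mtmr2, Mtmr3, Mtmr4, Mtmr6 and Mtmr14) and the 3 genes of the PIKfyve complex (Pikfyve, Fig4 and Vac14). They were chosen as genes of PI3P consumption, with the whole PIKfyve complex counted, and were found in the deposited table by symbol. All 10 are among its 32721 genes, and all 10 passed the filter on low values that left 14279 genes for testing.

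PI3P marks early endosomes and forming autophagosomes, where proteins with FYVE or PX domains bind it. Active myotubularins remove its 3-phosphate and give phosphatidylinositol, while PIKfyve, held by the scaffold Vac14 together with the phosphatase Fig4, adds a 5-phosphate and gives PI(3,5)P2, a lipid of late endosomes and lysosomes. Mtm1 is mutated in human X-linked myotubular myopathy, Mtmr2 and Fig4 in inherited peripheral neuropathies, and loss of PIKfyve activity swells endosomes into vacuoles.

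Poly-A RNA came from a line of mouse embryonic fibroblasts, all carrying floxed Vps15 alleles (Vps15f/f). The 4 groups of 3 libraries were Vps15KO EBSS (adeno-CRE, then 2 h in EBSS), WT EBSS (adeno-GFP, then 2 h in EBSS), Vps15KO basal (adeno-CRE, basal medium) and WT basal (adeno-GFP, basal medium), sampled 5 days after transduction. Adeno-CRE brings the recombinase that cuts out floxed DNA, so the expression of Cre and the loss of Vps15, the regulatory subunit of class 3 PI3K, cannot be told apart. EBSS is a salt solution without amino acids and replaced DMEM with 4.5 g/L glucose and 10% serum. The removal of amino acids therefore cannot be told apart from that of serum or from any other difference between the media. Nothing in the labels says that replicates were separate cultures, so p values measure the spread between these libraries, which may be technical.

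Libraries held 21278921 to 21698584 reads in genes. A pair of WT libraries stood apart by a chi-square of their reads. WT basal replicate 2 gave 20.0 and 19.1 per gene with replicates 1 and 3, where those 2 gave 3.03 with each other. WT EBSS replicate 1 gave 7.73 and 11.1, where replicates 2 and 3 gave 3.65. WT basal replicate 2 was the lowest of its group for 8 of the 10 genes and the highest for Mtmr14 and Vac14. Of 9 fibroblast markers, Thy1 was at 0 to 3 normalized counts in each library. The summed level of all 9 was 176247 to 188963 in Vps15KO EBSS against 377606 to 427386 in WT EBSS. In basal medium it was 194702 to 204295 in Vps15KO against 437732 to 461088 in WT. Vim, Col1a1, Col1a2 and Col3a1 held most of these counts. They, Pdgfra, Pdgfrb and Lum were lower in every Vps15KO library than in any WT library of the same medium. Dcn overlapped between genotypes. It had 126 to 187 in Vps15KO EBSS against 152 to 215 in WT EBSS, and 124 to 160 in Vps15KO basal against 116 to 205 in WT basal. The 6 leukocyte markers summed to 2619 to 3294 in Vps15KO EBSS against 790 to 881 in WT EBSS, and to 2910 to 3795 in Vps15KO basal against 864 to 892 in WT basal. Cd68 held nearly all of these counts, and the other 5 were at 2 or fewer normalized counts in every library. The part of these marker differences in the results was not tested, and in bulk RNA fewer cells of a type and less RNA per cell cannot be told apart.

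A normalized count is the number of reads of a gene divided by the library's size factor. Log2 differences are differences of the deposited variance-stabilized values with the standard error of a limma fit, and a gene was called at a Benjamini-Hochberg adjusted p under 0.05 over all 14279 genes. The gene that encodes Vps15, Pik3r4, had 623, 602 and 672 normalized counts in Vps15KO EBSS and 959, 891 and 834 in WT EBSS. In basal medium it had 633, 700 and 640 in Vps15KO and 864, 879 and 884 in WT. In each medium the Vps15KO values were all below the WT values. The reads are from the entire gene, and the labels do not name the excised part.

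Mtm1 stood out among the 10. It had 831, 822 and 837 normalized counts in Vps15KO EBSS libraries against 172, 187 and 187 in WT EBSS. In basal medium it had 921, 749 and 799 in Vps15KO against 147, 87.9 and 199 in WT. Every Vps15KO library was far above every WT library, and neither medium changed this order. The log2 difference was 2.04 ± 0.16 in EBSS (SE, limma adjusted p = 3.43e-09) and 2.36 ± 0.16 in basal medium (adjusted p = 5.45e-10), or 4.56-fold and 5.69-fold in mean normalized counts. Only 0.3% of genes tested in EBSS, and 0.1% in basal medium, had a larger absolute difference.

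**Figure D1:**
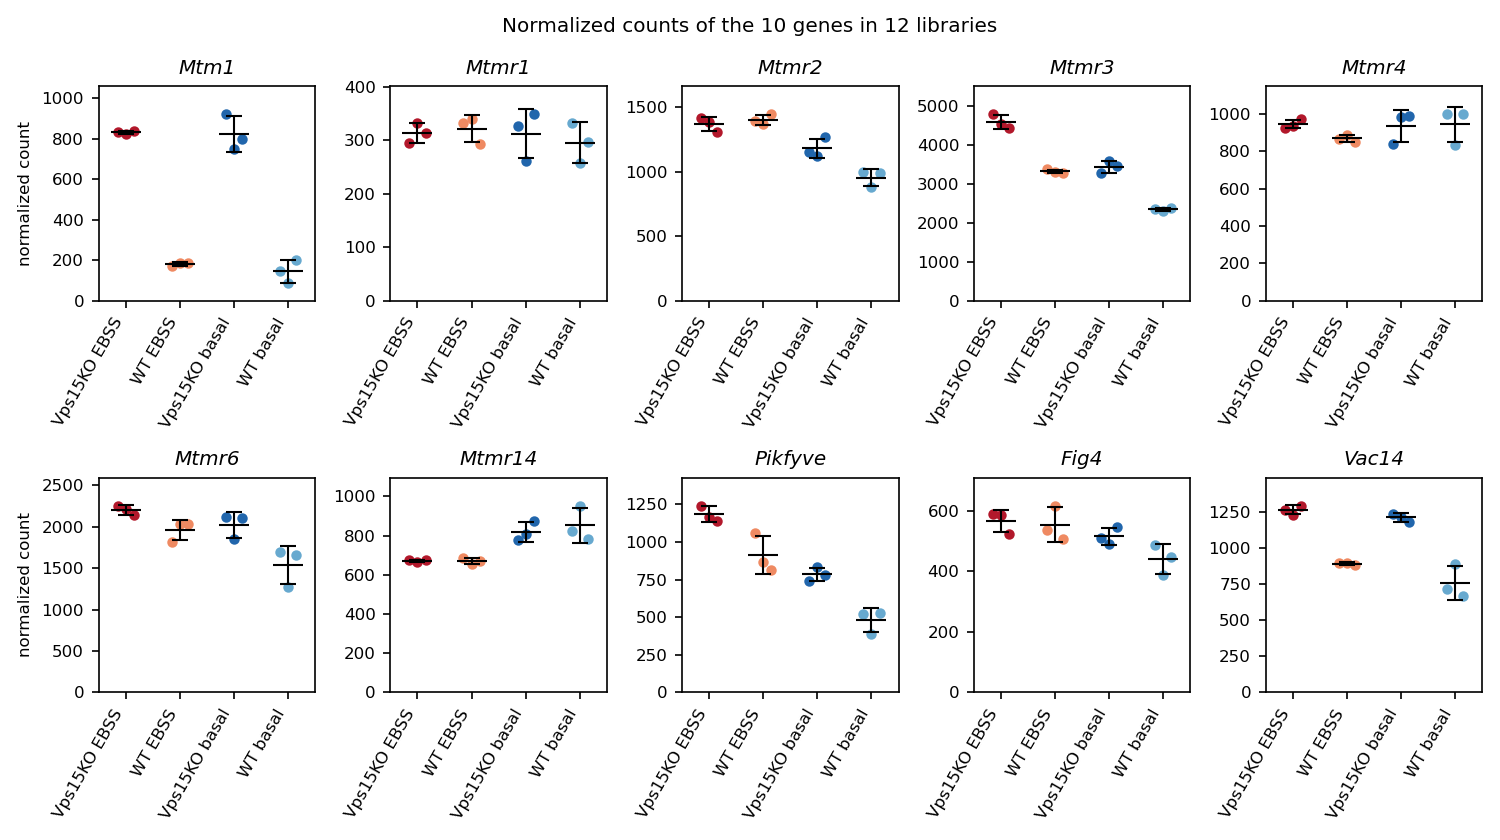
Normalized counts (vertical axes, from 0) of the 10 genes in the 12 libraries. Points are libraries and bars the mean ± SD of 3. Mtm1 lies between 749 and 921 in the 6 Vps15KO libraries and between 87.9 and 199 in the 6 WT libraries, while Mtmr1 and Mtmr4 lie at similar levels in all groups.

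Mtm1 lies on the X chromosome from 71210767 to 71315413 (mm10, plus strand), and its close paralog Mtmr1 follows it on the same strand from 71364760 to 71419196. Mtmr1 had 295, 331 and 313 normalized counts in Vps15KO EBSS against 332, 340 and 294 in WT EBSS, and 327, 262 and 349 in Vps15KO basal against 333, 257 and 297 in WT basal. The groups overlapped in both media, with log2 differences of -0.04 ± 0.10 (adjusted p = 0.795) and 0.07 ± 0.10 (adjusted p = 0.579). Beside the values of Mtm1 above, these show the neighbouring paralogs at unlike differences, a contrast that was not tested.

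Promoters are shown for this adjacent pair and for Pikfyve and Vac14, the complex members that were higher in Vps15KO in both media. Each line gives the 250 bases before a start site of the RefSeq promoter table (GRCm38.p6, the assembly of mm10), 5′ to 3′ on the gene's strand. Of several starts, the one with the most GENCODE protein-coding transcript starts within 100 bases was taken. For Mtm1, 6 of 7 such starts lay there, and this site is inside the annotated gene, past its first listed base. Capitals mark matches, on either strand, to any of 5 motifs: the E-box CACGTG, the ATF4 composite site TGATGNAAT, the antioxidant response element TGACNNNGC, the FOXO site GTAAACA and the cyclic AMP response element TGACGTCA.
Mtm1 (chrX:71214756-71215005, plus strand): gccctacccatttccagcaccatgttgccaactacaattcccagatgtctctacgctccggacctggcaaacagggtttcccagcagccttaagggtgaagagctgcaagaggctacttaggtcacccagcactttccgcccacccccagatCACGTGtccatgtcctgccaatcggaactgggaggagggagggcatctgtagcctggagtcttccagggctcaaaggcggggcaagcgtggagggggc
Mtmr1 (chrX:71364510-71364759, plus strand): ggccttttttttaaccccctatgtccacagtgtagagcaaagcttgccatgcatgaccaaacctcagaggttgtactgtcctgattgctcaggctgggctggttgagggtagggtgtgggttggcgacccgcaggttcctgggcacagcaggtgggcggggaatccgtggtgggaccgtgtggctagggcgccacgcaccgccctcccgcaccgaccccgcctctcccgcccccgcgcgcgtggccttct
Pikfyve (chr1:65186435-65186684, plus strand): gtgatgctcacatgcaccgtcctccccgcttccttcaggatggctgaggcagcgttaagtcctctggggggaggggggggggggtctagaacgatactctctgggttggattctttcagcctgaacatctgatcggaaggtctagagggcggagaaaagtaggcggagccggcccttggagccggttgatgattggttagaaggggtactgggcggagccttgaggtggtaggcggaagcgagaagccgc
Vac14 (chr8:110618317-110618566, plus strand): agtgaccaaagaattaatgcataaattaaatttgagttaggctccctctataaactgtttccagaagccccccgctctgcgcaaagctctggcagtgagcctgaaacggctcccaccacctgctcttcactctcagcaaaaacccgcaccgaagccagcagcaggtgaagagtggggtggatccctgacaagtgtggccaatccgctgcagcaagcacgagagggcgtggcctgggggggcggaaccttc

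Of these 4 windows, that of Mtm1 held a match, an E-box at 98 to 93 bases before the start. An E-box stood in 6.02% of the 32851 promoter windows of the same length. Among the other members, the window of Mtmr14 held a FOXO match at 21 to 15 bases before the start, as did 3.17% of windows, and those of Mtmr2, Mtmr6 and Fig4 held none of the 5. The antioxidant element stood in 10.2% of windows, the ATF4 site in 0.816% and the cyclic AMP element in 1.55%. A match describes letters in a window and says nothing of a bound factor. Mtmr3 and Mtmr4 had no entry.

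The FYVE-domain phosphatase Mtmr3 was also higher in Vps15KO. It had 4793, 4526 and 4441 normalized counts in Vps15KO EBSS against 3373, 3298 and 3284 in WT EBSS. In basal medium it had 3273, 3583 and 3459 in Vps15KO against 2349, 2303 and 2383 in WT. The groups did not overlap in either medium, and the log2 differences were 0.46 ± 0.06 in EBSS (limma adjusted p = 1.05e-06) and 0.55 ± 0.06 in basal medium (adjusted p = 1.48e-07). Its relative Mtmr4, which also carries a FYVE domain, had 839 to 987 normalized counts in Vps15KO basal against 836 to 1001 in WT basal and was not called (log2 difference -0.01 ± 0.08, adjusted p = 0.906). In EBSS all 3 Vps15KO libraries of Mtmr4, at 928 to 972, lay above the WT libraries at 850 to 890, but the log2 difference of 0.12 ± 0.08 was not called (adjusted p = 0.207).

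Mtmr2 and Mtmr6, PI3P phosphatases without a FYVE domain, were higher in Vps15KO in basal medium. Mtmr2 had 1148, 1122 and 1266 normalized counts in Vps15KO basal against 993, 881 and 987 in WT basal, a log2 difference of 0.30 ± 0.07 (limma adjusted p = 0.000872). Mtmr6 had 2115, 1847 and 2102 in Vps15KO basal against 1691, 1269 and 1654 in WT basal, a log2 difference of 0.40 ± 0.09 (adjusted p = 0.000891). Neither pair of groups overlapped. After EBSS the log2 differences between genotypes were -0.04 ± 0.07 for Mtmr2 (adjusted p = 0.672) and 0.17 ± 0.09 for Mtmr6 (adjusted p = 0.119). Mtmr6 in EBSS was called when WT basal replicate 2 was left out (adjusted p = 0.0131) or when the EBSS groups were fitted alone (adjusted p = 0.0131). After correction of every library for transcript length and GC content, the basal differences were 0.15 for Mtmr2 and 0.22 for Mtmr6, both still called. Part of the Mtmr2 gene overlaps the 3′ end region of Cep57, and the use of strand in counting is not given in the sources used here. Mtmr14, the phosphatase also called Jumpy, had log2 differences of 0.00 ± 0.07 in EBSS (adjusted p = 0.993) and -0.05 ± 0.07 in basal medium (adjusted p = 0.58).

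In the PIKfyve complex, the kinase and its scaffold were higher in Vps15KO in both media. Pikfyve had 1243, 1170 and 1143 normalized counts in Vps15KO EBSS against 1057, 869 and 817 in WT EBSS. In basal medium it had 743, 832 and 780 in Vps15KO against 523, 388 and 526 in WT. The groups were separate in both media, and the log2 differences were 0.37 ± 0.10 in EBSS (limma adjusted p = 0.00475) and 0.69 ± 0.10 in basal medium (adjusted p = 1.49e-05). The scaffold gene Vac14 had 1268, 1235 and 1298 in Vps15KO EBSS against 902, 898 and 884 in WT EBSS. In basal medium it had 1240, 1220 and 1184 in Vps15KO against 720, 892 and 666 in WT. Vac14 thus kept a narrow range of 1184 to 1298 over the 6 Vps15KO libraries, all above the WT libraries, with log2 differences of 0.49 ± 0.08 in EBSS (adjusted p = 4.17e-05) and 0.67 ± 0.08 in basal medium (adjusted p = 1.21e-06).

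Fig4, the phosphatase that works beside the kinase, differed least of the complex between genotypes. It had 512, 490 and 545 normalized counts in Vps15KO basal against 487, 387 and 449 in WT basal, and 590, 586 and 525 in Vps15KO EBSS against 537, 618 and 508 in WT EBSS. The basal groups were separate by a small gap, 490 against 487, and the EBSS groups overlapped. The basal difference of 0.22 ± 0.09 passed narrowly (limma adjusted p = 0.0447) and was 0.13 without WT basal replicate 2 (adjusted p = 0.172). The basal call of Fig4 ended in 14 of 22 alternatives, with adjusted p from 0.0507 to 0.172. In EBSS the difference was 0.03 ± 0.09 (adjusted p = 0.773).

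Counted together, 4 of the 10 genes were called higher and 0 lower in Vps15KO in EBSS (Mtm1, Mtmr3, Pikfyve and Vac14), where 29.4% of all genes tested were called higher, 27.8% lower and 57.2% in either direction. In basal medium 7 were called higher and 0 lower, against a background of 29.3% higher, 29.2% lower and 58.5% in either direction. The median log2 difference of the 10 was 0.14 in EBSS and 0.35 in basal medium, where the medians over all genes tested were 0.00 and -0.01. Groups did not overlap for 6 of the 10 in EBSS, against 66.3% of all genes, and for 7 in basal medium, against 61.7%. In either direction 40.0% of the 10 were called in EBSS, below the share of all genes, and 70.0% in basal medium, above it, and every call was on the higher side, where calls over all genes were about even.

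**Figure D2:**
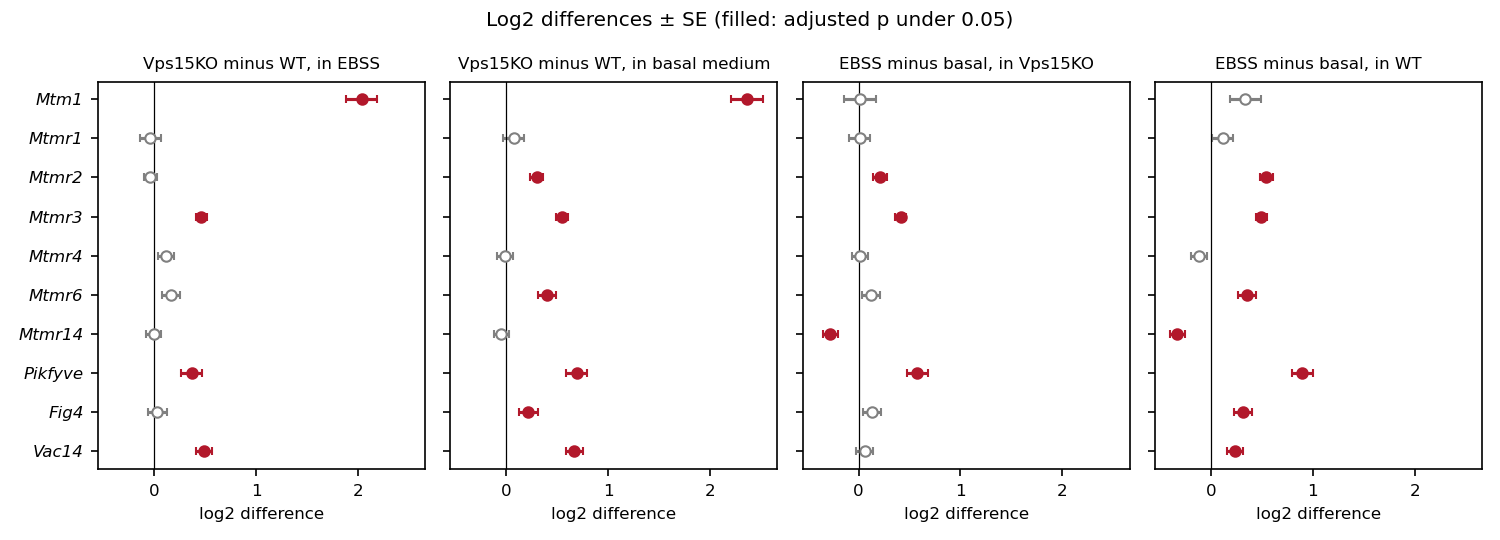
Log2 differences of the deposited values (horizontal axes) with standard errors for the 10 genes in 4 comparisons. Filled points passed adjusted p under 0.05. Mtm1 lies at 2.04 and 2.36 in the genotype comparisons and at 0.02 and 0.34 in the comparisons of media, where it was not called, while Pikfyve is filled in all 4 panels.

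Levels of different genes were compared as normalized counts per kb of the longest protein-coding GENCODE transcript. In WT basal libraries the order, from the top, was Mtmr3 (413 ± 7.05 per kb, mean ± SD, n = 3), Mtmr6 (403 ± 61.2), Mtmr14 (318 ± 33.8), Mtmr2 (252 ± 16.7), Vac14 (247 ± 38.6), Mtmr4 (164 ± 16.4), Fig4 (134 ± 15.3), Mtmr1 (63.7 ± 8.14), Pikfyve (42.6 ± 6.99) and Mtm1 (41.5 ± 15.9). Neighbours whose means ± SD overlapped were Mtmr3 and Mtmr6, Mtmr6 and Mtmr14, Mtmr2 and Vac14, Mtmr4 and Fig4, and Pikfyve and Mtm1. In Vps15KO basal libraries Mtm1 was at 236 ± 25.4 per kb, above Mtmr4 (163 ± 14.7), Fig4 (157 ± 8.46), Pikfyve (69.9 ± 3.98) and Mtmr1 (67.4 ± 9.80). The order depends on the transcript length, since Mtm1 measures 3488 bases as one transcript and 13935 over the union of its annotated exons, and comparisons of groups within a gene do not. Per kb of that union, Mtm1 in Vps15KO basal was at 59.1, below Mtmr4 (150) and Fig4 (157) and above Mtmr1 (53.4) and Pikfyve (40.9).

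**Figure D3:**
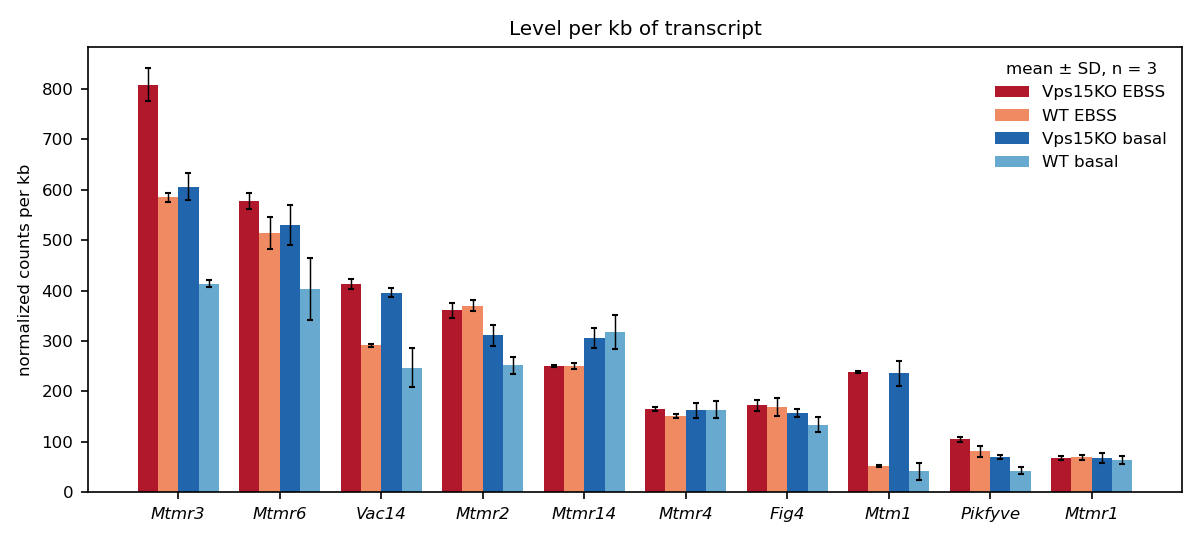
Level per kb of transcript (vertical axis, normalized counts per kb, bars from 0) of each gene in the 4 groups, ordered by the mean over 12 libraries. Bars are means and whiskers SDs of 3 libraries. Mtmr3 and Mtmr6 are at the top in every group, and Mtm1 is at 238 and 236 in the Vps15KO groups against 52.2 and 41.5 in the WT groups.

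Summed over the 7 phosphatases, the level per kb was 2418 to 2524 in Vps15KO EBSS against 1968 to 2009 in WT EBSS, and 2156 to 2299 in Vps15KO basal against 1554 to 1714 in WT basal. Mtm1 made up 9.64% ± 0.25 of this sum in Vps15KO EBSS against 2.62% ± 0.10 in WT EBSS (SD, n = 3), and 10.6% ± 1.16 in Vps15KO basal against 2.48% ± 0.87 in WT basal. Mtmr3 held 32.4% to 33.5% in Vps15KO EBSS against 28.8% to 30.2% in WT EBSS, and 26.2% to 29.3% in Vps15KO basal against 24.2% to 26.1% in WT basal. Summed over the PIKfyve complex, the level per kb was 684 to 704 in Vps15KO EBSS against 515 to 558 in WT EBSS, and 621 to 626 in Vps15KO basal against 400 to 443 in WT basal. These sums and shares are descriptions, depend on the transcript lengths used and were not tested.

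EBSS raised Pikfyve in both genotypes. From the values above, all 3 EBSS libraries lay above all 3 basal libraries in Vps15KO and in WT. The log2 change was 0.58 ± 0.10 in Vps15KO (limma adjusted p = 0.000139) and 0.90 ± 0.10 in WT (adjusted p = 5.88e-07), or 1.51-fold and 1.91-fold in mean normalized counts. After the length and GC correction, the changes were 0.28 in Vps15KO and 0.58 in WT, both called. The Pikfyve transcript, at 11237 bases, is the longest of the 10, of which 9 exceed the median of 2989 over the genes tested. Changes after EBSS went with transcript length across 13707 genes (Spearman rho 0.362 in Vps15KO and 0.328 in WT). With GC content, rho was -0.220 in Vps15KO and -0.301 in WT. For Vps15KO against WT in basal medium, rho was 0.116 with length and -0.233 with GC content. These rho values are descriptions over genes that share libraries.

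Mtmr3 rose after EBSS in both genotypes as well, by 0.41 ± 0.06 in Vps15KO (limma adjusted p = 6.31e-06) and 0.50 ± 0.06 in WT (adjusted p = 4.16e-07), with no overlap of the groups. After the length and GC correction these changes were 0.23 and 0.32, both called. Mtmr14 fell in both. It had 674, 663 and 676 normalized counts in Vps15KO EBSS against 775, 808 and 877 in Vps15KO basal, and 687, 654 and 672 in WT EBSS against 822, 954 and 781 in WT basal. The groups were separate, and the changes were -0.28 ± 0.07 in Vps15KO (adjusted p = 0.00433) and -0.33 ± 0.07 in WT (adjusted p = 0.000876). Mtmr14 is the one gene of the 10 that was called lower after EBSS, and at 2676 bases it has the shortest transcript of them. Both of its calls held in all 22 alternatives, the length and GC correction among them. The changes there ran from -0.33 to -0.23 in Vps15KO and from -0.39 to -0.25 in WT.

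Mtmr2 rose after EBSS in WT, to 1393, 1368 and 1446 normalized counts against 993, 881 and 987 in WT basal (0.54 ± 0.07, limma adjusted p = 1.30e-06). After the length and GC correction this change was 0.35 and was still called. In Vps15KO, Mtmr2 had 1413, 1384 and 1306 in EBSS against 1148, 1122 and 1266 in basal medium, separate groups with a smaller change of 0.21 ± 0.07 (adjusted p = 0.013). That call ended with quantile normalization (0.13, adjusted p = 0.125), after the length and GC correction (0.09, adjusted p = 0.18), and without Vps15KO EBSS replicate 1 (adjusted p = 0.0568) or Vps15KO basal replicate 2 (adjusted p = 0.0692). The change in Vps15KO minus that in WT was -0.33 ± 0.09 (adjusted p = 0.0197), the one difference of EBSS effects that was called among the 10, where 17.8% of all genes tested were called, 9.55% higher and 8.24% lower. It was lost without Vps15KO EBSS replicate 3 (adjusted p = 0.0591) or Vps15KO basal replicate 3 (adjusted p = 0.0649). In EBSS the Mtmr2 levels of both genotypes overlapped, at 1306 to 1413 in Vps15KO and 1368 to 1446 in WT.

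A further 3 genes were called higher after EBSS in WT and not in Vps15KO, and in none of them was the difference of the EBSS effects called. Mtmr6 rose by 0.36 ± 0.09 in WT (limma adjusted p = 0.00201), to 1821, 2033 and 2033 normalized counts against 1691, 1269 and 1654 in WT basal. The Mtmr6 change was 0.23 without WT basal replicate 2 (adjusted p = 0.00376) and 0.13, not called, after the length and GC correction (adjusted p = 0.0645). Fig4 rose by 0.31 ± 0.09 (adjusted p = 0.00537). Vac14 rose by 0.24 ± 0.08 (adjusted p = 0.0148) although its groups overlapped, WT basal replicate 2 at 892 lying within the WT EBSS range of 884 to 902. Leaving out WT basal replicate 1 (0.21, adjusted p = 0.0533) or 3 (0.15, adjusted p = 0.101) ended the Vac14 call, and fitting the WT groups alone did so too (adjusted p = 0.0594). In Vps15KO the changes were 0.13 ± 0.09 for Mtmr6 (adjusted p = 0.25), 0.13 ± 0.09 for Fig4 (adjusted p = 0.239) and 0.06 ± 0.08 for Vac14 (adjusted p = 0.557).

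Mtm1 was not called after EBSS in Vps15KO (0.02 ± 0.16, limma adjusted p = 0.94) or in WT (0.34 ± 0.16, adjusted p = 0.0659). In WT it was called without WT basal replicate 3, the highest of its group at 199 normalized counts (0.57, adjusted p = 0.00111) and with quantile normalization (0.41, adjusted p = 0.0275). Without WT basal replicate 2, the lowest at 87.9, the change was 0.07 and not called. Mtmr1 was not called in either genotype (0.01 ± 0.10 in Vps15KO, adjusted p = 0.947, and 0.12 ± 0.10 in WT, adjusted p = 0.342). Mtmr4 was not called (0.02 ± 0.08 in Vps15KO, adjusted p = 0.868, and -0.11 ± 0.08 in WT, adjusted p = 0.216). After the length and GC correction Mtmr4 was called lower in both, by -0.19 in Vps15KO (adjusted p = 0.018) and -0.34 in WT (adjusted p = 9.85e-05). Leaving out WT basal replicate 2, its lowest library in that group, also gave a call in WT (-0.20, adjusted p = 0.0146).

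In all, 3 of the 10 genes rose and 1 fell after EBSS in Vps15KO, against 25.9% of all genes tested called higher, 26.1% lower and 52.0% in either direction. In WT 6 rose and 1 fell, against 31.4% higher, 31.3% lower and 62.7% in either direction. Groups did not overlap for 5 of the 10 in Vps15KO, against 63.0% of all genes, and for 6 in WT, against 65.2%. The median log2 change of the 10 was 0.09 in Vps15KO and 0.33 in WT, beside medians of -0.02 over all genes in both. Without the called gene Mtmr2, the differences of the EBSS effects (Vps15KO minus WT) ran from -0.32 ± 0.22 for Mtm1 and -0.32 ± 0.15 for Pikfyve (adjusted p = 0.344 and 0.143) to 0.13 ± 0.11 for Mtmr4 (adjusted p = 0.461). The length and GC correction gave calls for Pikfyve (-0.30, adjusted p = 0.0292) and Vac14 (-0.26, adjusted p = 0.0465), and leaving out WT basal replicate 2 gave one for Vac14 (-0.30, adjusted p = 0.00702). For Mtm1 this difference was -0.55 without WT basal replicate 3, a call (adjusted p = 0.036), and -0.06 without WT basal replicate 2, not called.

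Other myotubularins gave mixed values. Mtmr7, a further active member, was near the filter at 15.4 ± 2.49 normalized counts in Vps15KO EBSS and 27.7 ± 3.26 in WT EBSS (SD, n = 3). At this level the log2 scale understates ratios. Mtmr7 was lower in Vps15KO in EBSS (-0.44 ± 0.13, limma adjusted p = 0.00591). In basal medium it averaged 9.79 in Vps15KO against 7.77 in WT and was not called (0.13). The difference of its EBSS effects was called (-0.57 ± 0.18, adjusted p = 0.0329). Of the 6 relatives without phosphatase activity, 2 were called higher and 1 lower in Vps15KO in EBSS. In basal medium 3 were called higher and 2 lower. In either direction 3 of the 6 were thus called in EBSS and 5 in basal medium. The shares over all genes tested were 57.2% in EBSS and 58.5% in basal medium. Mtmr12, which partners Mtm1 in muscle, was higher in EBSS (0.40 ± 0.10, adjusted p = 0.00248), and Mtmr9, a partner of Mtmr6, was lower in EBSS (-0.38 ± 0.06, adjusted p = 4.40e-05) and in basal medium (-0.23 ± 0.06, adjusted p = 0.00497). Sbf2, also known as Mtmr13 and a partner of Mtmr2, had 1251 ± 61.4 in Vps15KO basal against 848 ± 164 in WT basal (0.56 ± 0.10, adjusted p = 6.56e-05). Mtmr11 had 1049 ± 33.1 in Vps15KO basal against 1452 ± 19.6 in WT basal (-0.46 ± 0.06, adjusted p = 7.83e-06). After EBSS, 3 of the 6 rose and 2 fell in each genotype, Sbf1 by -0.39 ± 0.06 in Vps15KO and -0.46 ± 0.06 in WT. Called after EBSS were thus 83.3% of the 6 in each genotype, beside 52.0% of all genes tested in Vps15KO and 62.7% in WT.

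Among the PI3P-making kinases and their partners, 5 of 9 genes tested were called higher and 1 lower in Vps15KO in both media. The lower gene was Pik3r4. Partners were counted whatever their effect on the kinase, so these counts give no direction of PI3P production. Rubcn, a partner, was among those higher in EBSS (0.74 ± 0.07, limma adjusted p = 4.45e-08). Over all genes tested, 29.4% were higher and 27.8% lower in EBSS, and 29.3% higher and 29.2% lower in basal medium. Atg14, the subunit that directs class 3 PI3K to autophagosomes, was higher by 0.60 ± 0.06 in EBSS and 0.55 ± 0.06 in basal medium. Pik3c3, the catalytic subunit, had 1079 ± 25.2 normalized counts in Vps15KO EBSS against 1160 ± 30.5 in WT EBSS, and 992 ± 9.48 in Vps15KO basal against 1018 ± 37.3 in WT basal. Among 18 FYVE and PX proteins that bind PI3P, 8 were higher and 3 lower in EBSS and 9 higher and 1 lower in basal medium. Called in either direction were 61.1% of them in EBSS and 55.6% in basal medium, near the 57.2% and 58.5% of all genes. The endosome tether Eea1 had 973 ± 51.1 in Vps15KO EBSS against 577 ± 43.0 in WT EBSS (0.73 ± 0.08, limma adjusted p = 5.02e-07). Zfyve1, among the lower ones, had 1247 ± 51.6 in Vps15KO EBSS against 1899 ± 38.2 in WT EBSS (-0.60 ± 0.07, limma adjusted p = 3.48e-07). The 4 PROPPINs, which bind PI3P and PI(3,5)P2 on autophagosomes and endosomes, had 1 call in EBSS (Wdr45b, 0.21 ± 0.06) and 0 in basal medium.

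Downstream of PIKfyve, the endolysosomal channels opened by PI(3,5)P2 went in different directions. Tpcn2 had 654 ± 31.0 normalized counts in Vps15KO EBSS against 1478 ± 61.8 in WT EBSS, and 521 ± 13.4 in Vps15KO basal against 1229 ± 79.2 in WT basal. The log2 differences were -1.14 ± 0.07 and -1.19 ± 0.07 (limma adjusted p = 8.71e-11 and 5.63e-11). Mcoln1 was higher, by 0.33 ± 0.05 in EBSS and 0.51 ± 0.05 in basal medium. Tpcn1 rose after EBSS by 0.46 ± 0.06 in Vps15KO and 0.92 ± 0.06 in WT, and the difference of these effects was called (-0.46 ± 0.08, adjusted p = 0.000642). Mcoln2 and Mcoln3 were below the filter.

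Of 11 other phosphoinositide phosphatases, 5 were higher and 1 lower in Vps15KO in EBSS, and 4 higher and 1 lower in basal medium. Pip4p1, a lysosomal phosphatase gene also called Tmem55b, had 2447 ± 108 normalized counts in Vps15KO basal against 1318 ± 22.3 in WT basal (0.88 ± 0.05, limma adjusted p = 2.11e-10). Of 7 PI5P and PI4P kinases, 4 were higher and 0 lower in each medium, among them Pi4k2b (0.49 ± 0.09 in EBSS and 0.69 ± 0.09 in basal medium). Called in either direction were 54.5% of the phosphatases in EBSS and 45.5% in basal medium, and 57.1% of the kinases in each, where 57.2% of all genes were called in EBSS and 58.5% in basal medium. Median log2 differences in basal medium were 0.15 for the inactive relatives and 0.22 for the PI3P-making kinases and their partners. They were 0.15 for the FYVE and PX proteins, 0.04 for the PROPPINs and 0.15 for the channels. The other phosphatases had 0.14 and the PI5P and PI4P kinases 0.26. For the 7 myotubularin phosphatases the median was 0.30, and for the PIKfyve complex 0.67.

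**Figure D4:**
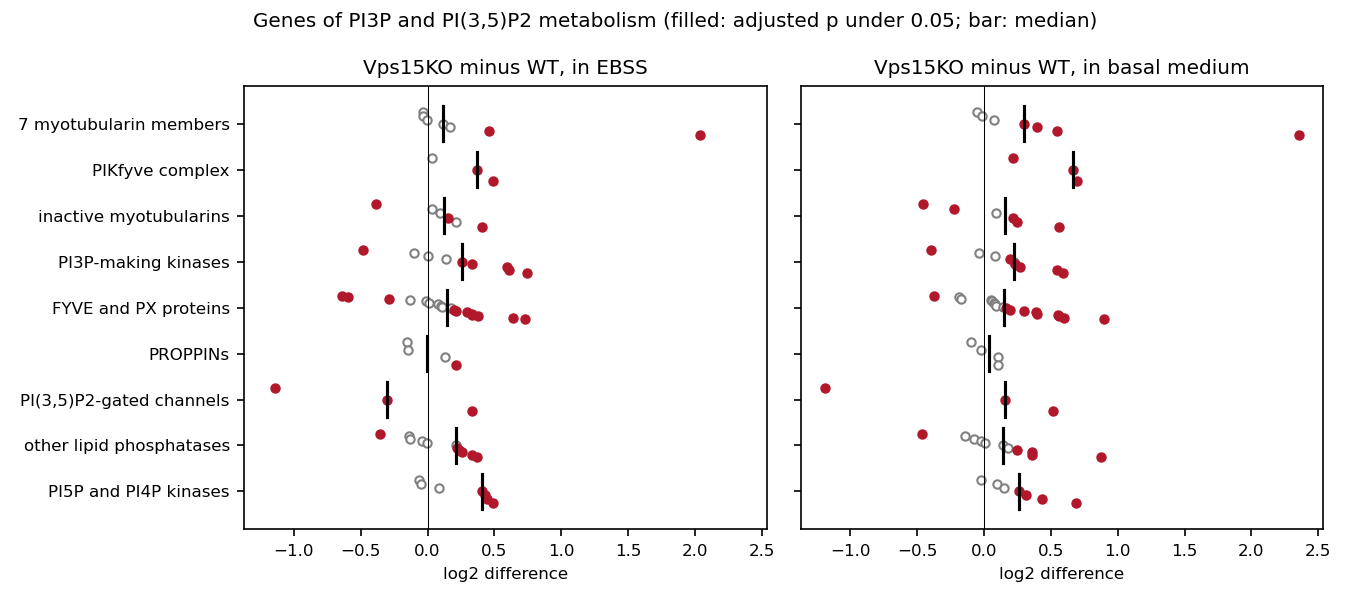
Log2 differences between genotypes (horizontal axes) of each gene tested, by list, in EBSS and in basal medium. Filled points passed adjusted p under 0.05 and bars are medians. Mtm1, at 2.04 and 2.36, lies farthest to the right in both panels, and Tpcn2, at -1.14 and -1.19, farthest to the left.

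Genes were ranked by how closely their deposited values followed a member across the 12 libraries. Predicted genes and pseudogenes (symbols with Gm and digits, Rik, -ps or LOC) were left out. Closest to Mtm1 were Enpp2, which encodes autotaxin (Pearson r = 0.994), Idi1, an enzyme of isoprenoid synthesis (r = 0.992), and Hccs, a holocytochrome c synthase (r = 0.992). Enpp2 averaged 3278 normalized counts in Vps15KO EBSS against 1078 in WT EBSS, and 3339 in Vps15KO basal against 803 in WT basal. Closest to Pikfyve were Smarca5 (r = 0.994), Trappc8 (r = 0.990) and Zcchc2 (r = 0.988). Smarca5, a chromatin remodeller, averaged 3212 in Vps15KO EBSS against 2776 in WT EBSS, and 2518 in Vps15KO basal against 1900 in WT basal. These values describe 12 libraries in 4 groups, so they mostly reflect likeness of the group means.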

How the data were processed

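The deposited table holds log2 values, which the authors made by a variance-stabilizing transformation of counts (the file's own naming), 1 column per library. Per the submitters' processing notes, STAR 2.7.10b, featureCounts, DESeq2, limma and mm10 were used, with no roles given. The value of a count of 0, 3.83, is shared by all columns, and from it the transformation was inverted. All values gave whole reads within 0.001, with size factors of 0.945 to 1.02.

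Group means were estimated by limma 3.58.1 (R 4.3.3) on those values (variance trend, 8 residual and 10.2 prior degrees of freedom) over genes averaging at least 1 above that floor. The 5 two-sided comparisons were adjusted by Benjamini and Hochberg over all genes, and the fit was tested on simulated data. Named genes are all members, Pik3r4, and up to 3 called genes of smallest p per list and comparison, of which some are given. Also named are the 3 closest to Mtm1 and to Pikfyve, as ranked above. Pik3c3, outside this rule, was added after its values were seen. The members and lists were chosen with earlier results of these data known. All 32721 symbols matched RefSeq (GRCm38.p6). Mtmr8 had no entry under that symbol. Transcript lengths are from GENCODE M21. Intervals and errors do not cover biological variation beyond these libraries.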

Additional observations from a re-analysis of the deposited data

Results flagged for a closer look

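The response of Mtmr2 to EBSS differed between genotypes by the interaction test. The log2 change in Vps15KO minus that in WT was -0.33 ± 0.09 (SE, limma adjusted p = 0.0197). Of the 10 genes it was the one so called. The call was lost without Vps15KO EBSS replicate 3 (adjusted p = 0.0591) or Vps15KO basal replicate 3 (adjusted p = 0.0649). It held without WT basal replicate 2, which stands apart from its group (-0.28).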

How the results depend on the processing

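Of 1090 member results under alternatives, 1051 kept their direction and side of the threshold, 24 lost a call, 14 gained one and 1 changed sign (a change of sign counted only where either setting gave a call). The number of members called stayed at 3 to 5 for EBSS in Vps15KO, 6 to 8 for EBSS in WT, 4 to 5 for Vps15KO in EBSS and 6 to 7 for Vps15KO in basal medium. For the difference of the EBSS effects, 1 member was called, against 3 after correction for transcript length and GC content (a spline per library), 2 without both WT libraries that stand apart, and 0 to 2 when single libraries were left out. The result that changed sign was Mtmr4 after EBSS in Vps15KO, which was -0.19 after the length and GC correction. With the replicate number as a block, the counts were 4, 8, 4 and 6 in the order above and 1 for the difference, with Mtm1 after EBSS in WT gaining a call (adjusted p = 0.0473) and Fig4 in basal medium losing one (adjusted p = 0.0528). Residuals of same-numbered libraries correlated at -0.155 to 0.26, not above 0.1 in all 3 pairs of any comparison. The numbers were therefore not treated as pairs. In EBSS, however, every library correlated best with its own number in the other genotype. In basal medium the same-numbered r between genotypes was 0.09, 0.26 and 0.08 for replicates 1, 2 and 3. A pairing between genotypes is thus not excluded. Depth was even, and Mtm1 in WT basal, at 87.9 to 199 normalized counts, is the member level with the fewest reads.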

Other observations

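The protein-coding genes tested around Mtm1 on the X chromosome, besides Mtmr1, differed between genotypes in both directions. Mamld1, which lies before it from 71050036 to 71156056 (mm10), averaged 172 normalized counts in Vps15KO EBSS against 83.2 in WT EBSS, and 186 in Vps15KO basal against 111 in WT basal. Its log2 differences were 0.86 ± 0.09 (SE, limma adjusted p = 2.11e-07) and 0.63 ± 0.09 (adjusted p = 9.68e-06). Cd99l2, which follows Mtmr1 from 71420060 to 71492866, was lower in Vps15KO, by -0.45 ± 0.06 in EBSS (adjusted p = 4.98e-06) and -0.36 ± 0.06 in basal medium (adjusted p = 7.08e-05). Hmgb3 was higher in Vps15KO in basal medium (0.59 ± 0.14, adjusted p = 0.00118) and not called in EBSS (-0.28 ± 0.14, adjusted p = 0.0915). Vma21 was lower in EBSS (-0.37 ± 0.09, adjusted p = 0.0025) and not called in basal medium (-0.16 ± 0.09, adjusted p = 0.149). These neighbours were picked by position after the values of Mtm1 were seen.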
